A study of Mus musculus with 12 samples.

Results

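The data described here are the levels of all genes in mouse macrophages after 24 h of interferon-beta (Ifn-β), set against the same cells before treatment (0 h). The 2 arrays labelled 24 h (numbers 17 and 22) and the 2 labelled 0 h (numbers 2 and 4) were taken, 4 of the 12 arrays of the series. Of its 23332 transcript clusters (sets of probes for one transcribed region), 14996 carry exactly 1 gene symbol, and these stand for 14860 genes. The macrophages were grown with the growth factor Csf1 from bone marrow of male Balb-C mice, and recombinant mouse Ifn-β was added at 10 U/ml. The other arrays are pairs at 1, 2, 4 and 8 h after Ifn-β, with numbers 5 and 8, 10 and 12, 15 and 16, and 18 and 23. All groups share the strain, the sex and Csf1. The labels speak of biological replicates whose RNA came from different wells, so the p-values measure the spread between wells, which may be technical. No culture kept for 24 h without Ifn-β is among the arrays, so the effect of Ifn-β and that of a further day in culture cannot be told apart.

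Ifn-β is a type I interferon, a cytokine that cells release when they detect a virus. It binds the receptor chains Ifnar1 and Ifnar2, whose kinases Jak1 and Tyk2 phosphorylate transcription factors such as Stat2. Stat2 acts with Irf9 in a complex that binds the interferon-stimulated response element (ISRE) of target genes. The targets encode antiviral effectors, sensors of viral nucleic acid and parts of antigen presentation, and brakes such as Socs1 limit the signal. In cells of many types type I interferon is also known to slow proliferation. Csf1, in turn, is the growth factor on which macrophages from bone marrow survive and divide in culture.

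Levels are RMA values on the log2 scale, in which 1 unit is a factor of 2, and the arrays had medians of 5.84 to 5.90. The 12 arrays were fitted together with limma, and a call needed a change of at least 1.5-fold and, over all 23332 clusters, a Benjamini-Hochberg adjusted p under 0.05. All adjusted p-values below are from this fit, changes are 24 h minus 0 h unless another pair of times is named, and SE is the standard error of a change. The number of arrays limits the precision, and the lack of a call does not show that a gene stayed level. The 7 measured macrophage markers lay at a median percentile of 98.4 among all genes at 24 h and 98.6 at 0 h. The median percentiles of the markers of 9 other cell types were 11.8 to 37.8 at 24 h and 12.4 to 37.1 at 0 h. Single markers among them lay far higher, such as Cd28 (94.6) and Blnk (91.8) at 24 h. Levels of different transcripts also depend on their probes.

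After 24 h of Ifn-β the macrophages held more transcript of many antiviral genes, sensors of nucleic acid and interferon-inducible GTPases, and of single genes such as Cfb, Fcgr4, Ccl8 and Ccl5, and less of many genes for mitosis and DNA replication. Over all 23332 clusters, 143 were called up (0.613%) and 195 down (0.836%). Among the 14996 clusters with exactly 1 symbol, 114 were up (0.76%) and 135 down (0.9%; per gene 0.76% and 0.902%), with a median change of 0.96 and -0.92. At least 2-fold changes were made by 54 of the risen and 43 of the fallen clusters. In none of these called clusters did the 24 h and the 0 h arrays overlap, but both 24 h arrays also lay above both 0 h arrays in 29.5% of all clusters with 1 symbol and below them in 19.3%. The median change of all genes was 0.04. The counts fell to 38 up and 17 down without array 17, 42 and 13 without array 22, 61 and 16 without array 2, and 69 and 69 without array 4. Without either array of 2 h, the pair with the lowest estimated array weight (0.341, against 1.02 to 1.46 for the others), they were 198 and 395, and without any one array of 1, 4 or 8 h they were 94 to 101 and 99 to 103.

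**Figure D1:**
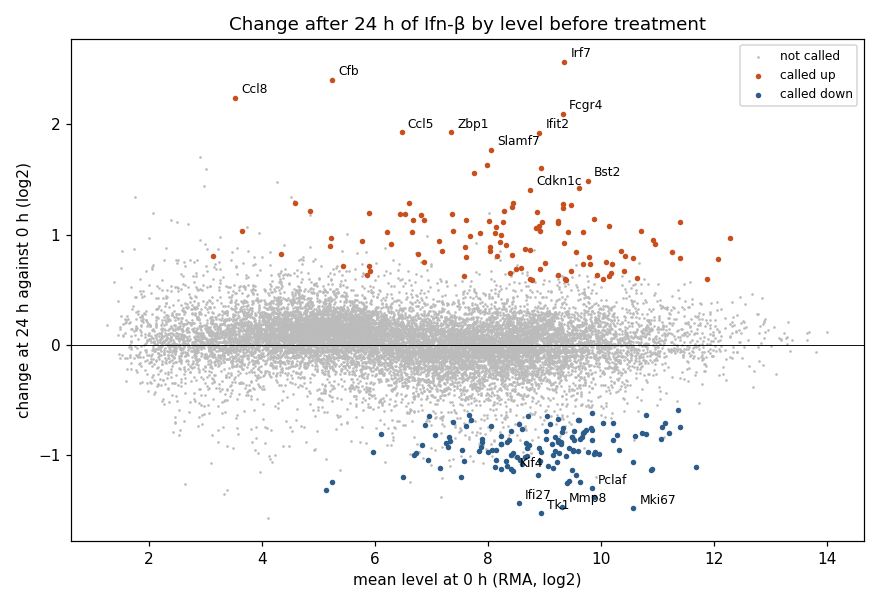
Change at 24 h against 0 h (log2, vertical) by the mean level at 0 h (RMA log2, horizontal) for the 14996 transcript clusters with 1 gene symbol; orange points were called up, blue points down and grey points were not called. The 114 risen clusters reach 2.57, for Irf7, and lie at low as well as high levels.

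The largest rise was that of Irf7, the transcription factor that drives further type I interferon production. Irf7 (transcript cluster 6972192, chromosome 7) had levels of 11.91 and 11.93 at 24 h, against 9.28 and 9.42 at 0 h, which is a change of 2.57 (SE 0.126, adjusted p = 0.000146). Cfb, factor B of the alternative complement pathway (cluster 6855061), had 7.66 and 7.65 at 24 h, against 5.26 and 5.24 at 0 h, which is a change of 2.40 (SE 0.104, adjusted p = 0.000146). The arrays of a time lay close together for both genes, and the times were far apart. Ccl8, a chemokine for monocytes, had 5.67 and 5.87 at 24 h and 3.70 and 3.36 at 0 h, which is a change of 2.24 (SE 0.228, adjusted p = 0.00409). Fcgr4, an activating receptor for immunoglobulin G, had 11.47 and 11.37 at 24 h and 9.36 and 9.29 at 0 h, which is a change of 2.10 (SE 0.108, adjusted p = 0.000146). That the arrays of the 2 times did not overlap was a condition for choosing these genes.

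Zbp1, a sensor of nucleic acid in the left-handed Z form, had 9.29 and 9.27 at 24 h, against 7.32 and 7.38 at 0 h (change 1.93, SE 0.097, adjusted p = 0.000146). Ifit2, which acts against the translation of viral RNA, had 10.87 and 10.79 at 24 h, against 9.07 and 8.74 at 0 h (change 1.93, SE 0.122, adjusted p = 0.000423). Neither gene had overlapping arrays, as the choice of the named genes required. Ccl5, a chemokine for T cells and monocytes, had 8.33 and 8.48 at 24 h, against 6.43 and 6.52 at 0 h (change 1.93, SE 0.309, adjusted p = 0.0253). Slamf7, a receptor of the SLAM family on the cell surface, had 9.91 and 9.75 at 24 h, against 8.16 and 7.96 at 0 h (change 1.77, SE 0.112, adjusted p = 0.000423). Ifit1, which binds viral RNA with an unmethylated cap, had 9.60 and 9.62 at 24 h, against 8.24 and 7.71 at 0 h (change 1.64, SE 0.158, adjusted p = 0.00342). Of the arrays at 0 h, array 2 was the higher for both Ifit genes, and it still lay well below the 24 h arrays.

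The rest of the 15 largest rises lay between 1.29 and 1.6. They were the membrane protein Ms4a6b (1.6), Dio2, the deiodinase that makes active thyroid hormone (1.56), Bst2 or tetherin, which holds budding virus at the cell surface (1.49), Ly86 or MD-1, the partner of Cd180 (1.43), Cdkn1c or p57, an inhibitor of cyclin-dependent kinases (1.41), and the exonuclease Isg20 (1.29). P2ry14, a receptor for UDP-glucose, had the same change as Isg20, so the last place is a tie that the order of the table settled. The calls of 11 of the 15 held with each of the 12 arrays left out in turn. Ccl8 was no longer called without array 22 (adjusted p = 0.0508), Dio2 without array 17 (adjusted p = 0.0605), Ly86 without array 4, 17 or 22 (adjusted p up to 0.0777), and Ccl5 without any one array of 0, 4, 8 or 24 h (adjusted p up to 0.17).

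**Figure D2:**
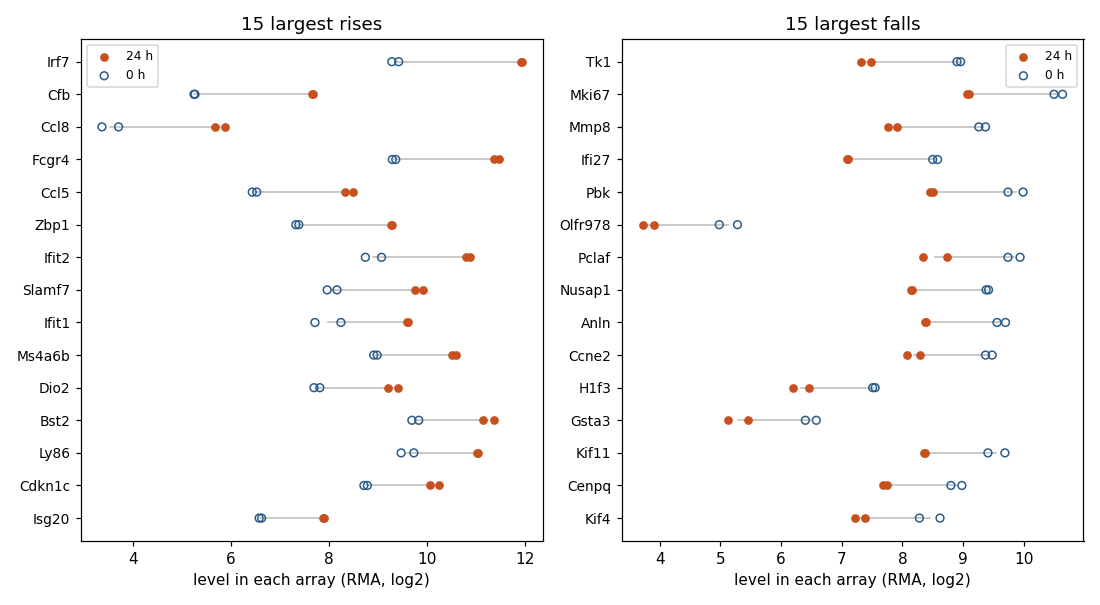
Level in each array (RMA log2, horizontal) of the genes with the 15 largest rises, left, and the 15 largest falls, right; filled orange points are the 2 arrays at 24 h, open blue circles the 2 at 0 h, and the grey line joins the means. Groups that do not overlap were a condition for choosing these genes. The gap is widest for Irf7 (11.92 at 24 h and 9.35 at 0 h on average).

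The ISRE was looked for in the windows that RefSeq gives from 250 bases before to 50 after a gene's start (build GRCm38.p6), as the letters GAAA, 2 bases of any kind and GAAA again, on either strand. The first window listed for a gene was used, and 89 of the 114 risen clusters and 113 of the 135 fallen ones had one. The letters were in 26 of the 89 windows (29.2%) of risen genes, in 7 of the 113 (6.19%) of fallen genes and in 3.16% of the windows of all genes with 1 symbol. They were in those of 3 of the 11 genes with a window among the 15 largest rises, Ifit1, Bst2 and Fcgr4. Gbp2, a GTPase that attacks the vacuoles of parasites, and Gbp3 of the same family were called too. The stretches that hold the letters are shown for these genes, since the ISRE is the element through which Ifn-β signalling is known to act, with the match in capitals, each 5′ to 3′ on the gene's strand and ending at the base before its start. They are chr19:34640769-34640888 (plus strand) for Ifit1, chr8:71537473-71537612 (minus strand) for Bst2, chr1:171018806-171018925 (plus strand) for Fcgr4, chr3:142620543-142620662 (plus strand) for Gbp2 and chr3:142559924-142560043 (plus strand) for Gbp3.
Ifit1: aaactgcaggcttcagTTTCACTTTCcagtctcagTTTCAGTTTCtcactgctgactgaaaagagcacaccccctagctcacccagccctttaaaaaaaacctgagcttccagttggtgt
Bst2: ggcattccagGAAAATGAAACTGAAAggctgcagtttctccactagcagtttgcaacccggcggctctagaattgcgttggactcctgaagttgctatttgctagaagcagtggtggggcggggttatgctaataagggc
Fcgr4: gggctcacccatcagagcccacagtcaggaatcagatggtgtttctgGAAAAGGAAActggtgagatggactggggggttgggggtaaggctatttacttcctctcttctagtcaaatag
Gbp2: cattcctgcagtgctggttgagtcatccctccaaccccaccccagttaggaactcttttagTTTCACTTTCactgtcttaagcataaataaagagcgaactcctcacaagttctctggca
Gbp3: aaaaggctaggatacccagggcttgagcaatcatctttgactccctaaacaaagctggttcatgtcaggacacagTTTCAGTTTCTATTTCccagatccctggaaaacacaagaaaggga
Ifit1 has the letters at 2 places on the reverse strand, Bst2 and Gbp3 have 2 overlapping matches, and Fcgr4 and Gbp2 have 1. A match is a description of the letters and was not tested as a site, matches of different motifs can share bases, and a gene may have other starts.

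Antiviral effectors were the list with the most members called up. Of 16 measured members, among them the Ifit, Mx and Ifitm genes, 12 were up and none down, with a median change of 0.97. Mx1, a GTPase that blocks influenza viruses, had 7.53 and 7.72 at 24 h, against 6.58 and 6.30 at 0 h (change 1.19, SE 0.128, adjusted p = 0.00499). Rsad2 or viperin, which makes a chain-ending nucleotide, had 10.02 and 9.81 at 24 h, against 9.14 and 8.57 at 0 h (change 1.06, SE 0.182, adjusted p = 0.0317). The 0 h arrays of Rsad2 lay further apart than those of Mx1, and neither gene overlapped between the times. The members that were not called were Zc3hav1 (0.20), Apobec3 (0.10), Samhd1 (0.52) and Tnfsf10 (0.71). The count was 7 without array 4, 5 without array 17 and 4 without array 22; Mx1 was lost without array 22, and Rsad2 kept its call only without array 2 or an array of 2 h.

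The sensors followed. Of 10 measured sensors of nucleic acid in the cytosol and their adaptors, 6 were up and none down, with a median change of 0.94. Ddx58 or RIG-I, a sensor of viral RNA, had 10.15 and 10.00 at 24 h, against 8.95 and 8.79 at 0 h (change 1.21, SE 0.106, adjusted p = 0.00221), and Ifih1 or MDA5, its relative, had 9.20 and 9.05 at 24 h, against 8.17 and 8.06 at 0 h (change 1.01, SE 0.097, adjusted p = 0.00342). Both genes kept their calls with any array left out. Dhx58, Zbp1, Ifi203 and Ifi205 were the other sensors called, while Sting1 (0.54), Aim2 (0.28), the adaptor Mavs (0.14) and Cgas (-0.47), the enzyme that senses DNA, were not. Without array 2, 4, 17 or 22 the count was 4. Of the endosomal Toll-like receptors and their partners, 2 of 6 were up, Tlr7 (0.84, adjusted p = 0.0295) and Tlr3 (0.62, adjusted p = 0.0443), and both calls were kept only without an array of 2 h.

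Other families known as interferon targets were called in part. Of the interferon-inducible GTPases, 5 of 7 were up, with a median change of 0.80. Irgm1, a regulator of this family on vacuoles, had 10.70 and 10.77 at 24 h, against 9.46 and 9.47 at 0 h (change 1.27, SE 0.097, adjusted p = 0.00128), and Gbp2, whose promoter is shown above, had 8.44 and 8.38 at 24 h, against 7.41 and 7.34 at 0 h (change 1.03, SE 0.089, adjusted p = 0.00202). Gbp3 (0.76), Gbp7 (0.94) and Gvin1 (0.80) were called as well. Irgm1 and Gbp2 were called with any array left out, and the count was 2 without array 4, 17 or 22 and 3 without array 2 or an array of 1, 4 or 8 h. In the Oas family, 2 of 7 were up, Oasl1 (1.25, adjusted p = 0.00417; lost without array 17) and Oasl2 (1.24, adjusted p = 0.00128). Of the Schlafen family 4 of 7 were up, led by Slfn5 with 10.57 and 10.64 at 24 h, against 9.40 and 9.26 at 0 h (change 1.27, adjusted p = 0.00117), and the count was 1 without an array of 0, 8 or 24 h and 2 without one of 1 or 4 h. The Parp family attaches ADP-ribose, and its list also holds the ubiquitin ligase Dtx3l, which is not a Parp. Of the 12 measured members of this list 5 were up, Dtx3l among them. The highest changes were those of Parp14 (1.02, adjusted p = 0.00516; lost without array 17), Parp11 (1.01, adjusted p = 0.00607; lost without array 17 or 22) and Dtx3l (1.00, adjusted p = 0.00409; lost without array 22). The count of the list was 1 without array 17 or 22 and 3 without an array of 0, 1, 4 or 8 h. The housekeeping Parp1, which acts in DNA repair, was at -0.29 (adjusted p = 0.37). These lists were chosen with earlier results of these arrays known, so their counts are no independent evidence of a direction.

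Of the signalling chain itself single genes were called at 24 h, where 0.76% of all genes were called up. Of 15 measured receptors, Jak kinases and Stat factors, only Stat2 was called, with 9.99 and 9.90 at 24 h, against 9.01 and 8.81 at 0 h (change 1.03, SE 0.104, adjusted p = 0.00388; lost without array 17). The receptor chains Ifnar1 and Ifnar2 were at 0.04 and 0.16. Both 24 h arrays lay above both 0 h arrays in 10 of the 15 genes and below them in 0, against 29.6% and 19.2% of all genes. Of 8 interferon regulatory factors, Irf7 was called and Irf9, the DNA-binding partner of Stat2, was at 0.59 (adjusted p = 0.0552). Irf1, an activator, was at 0.42 (adjusted p = 0.154), Irf8 at 0.56 (adjusted p = 0.0847) and Irf3, the factor that acts upstream of Ifn-β, at -0.14 (adjusted p = 0.7). Among the 8 factors both 24 h arrays lay above both 0 h arrays in 5 and below them in 1. Of 13 brakes on interferon signalling limma called none, and none reached 1.5-fold at an unadjusted p under 0.05, with Socs3 (0.48) and Ptpn1 (0.30) highest and Socs1 at 0.18.

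**Figure D3:**
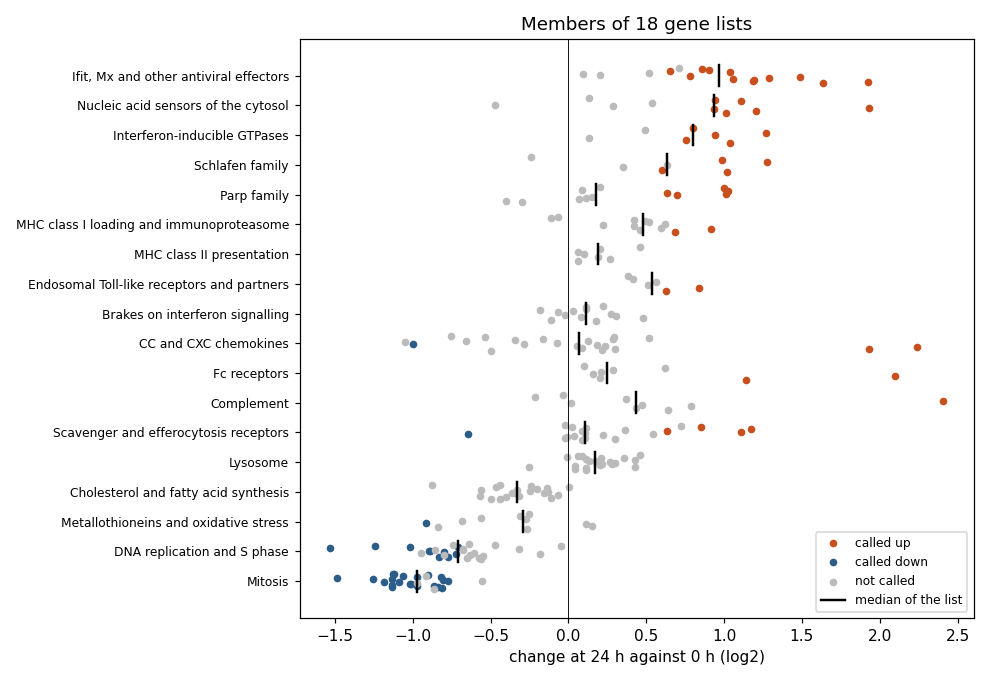
Change at 24 h against 0 h (log2, horizontal) of each measured member of 18 gene lists; orange points were called up, blue points down, grey points were not called, and the black bar is the median of the list. The antiviral effectors (median 0.97) stand at one end and the mitosis genes (median -0.98) at the other, against 0.04 for all genes.

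Antigen presentation showed smaller changes. Of 12 genes of MHC class I loading and the immunoproteasome, 2 were up, and the median change was 0.48. Tapbp or tapasin, which loads peptide, had 11.92 and 11.80 at 24 h, against 10.95 and 10.94 at 0 h (change 0.92, SE 0.095, adjusted p = 0.00417), and the peptide transporter Tap1 had 9.25 and 9.12 at 24 h, against 8.59 and 8.41 at 0 h (change 0.69, SE 0.109, adjusted p = 0.0248). Tapbp was lost without array 17, Tap1 was kept only without an array of 2 h, and the list then had 4 calls. In 10 of the 12 genes both 24 h arrays lay above both 0 h arrays, against 29.6% of all genes. Of 7 genes of MHC class II presentation limma called none, and none reached 1.5-fold at an unadjusted p under 0.05, with H2-Ab1 at 0.27 and Cd74 at 0.06.

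Surface molecules by which macrophages take up and bind other cells changed one by one. Of 8 Fc receptor genes, Fcgr4 and Fcgr1 were up, while Fcgr3 (0.20) and the signalling chain Fcer1g (0.16) were not called. Fcgr1, the high-affinity receptor for immunoglobulin G and also a macrophage marker, had 11.04 and 10.97 at 24 h, against 9.95 and 9.78 at 0 h (change 1.14, SE 0.105, adjusted p = 0.00263). Of 20 scavenger and efferocytosis genes, 4 were up and 1 down. Siglec1 or sialoadhesin, a lectin for sialic acid, had 8.04 and 7.94 at 24 h, against 6.80 and 6.83 at 0 h (change 1.18, SE 0.099, adjusted p = 0.00193). Axl, a receptor for dying cells, had 9.44 and 9.31 at 24 h, against 8.26 and 8.27 at 0 h (change 1.11, SE 0.108, adjusted p = 0.00342), and its ligand Gas6 had 10.59 and 10.52 at 24 h, against 9.94 and 9.91 at 0 h (change 0.63, SE 0.117, adjusted p = 0.0437). Cd300lf, an inhibitory receptor, was also up (lost without an array of 0 or 24 h). Siglec1, Axl and Fcgr1 kept their calls in all 12 fits with an array left out, and Gas6 only in the 2 without an array of 2 h. The related receptors Mertk (0.10) and Tyro3 (0.09) were not called, and Stab1, a scavenger receptor, was lower, with 8.12 and 8.01 at 24 h, against 8.76 and 8.66 at 0 h (change -0.65, adjusted p = 0.0448; kept only without an array of 2 h).

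Cfb was the only one of 9 complement genes called, and the C1q chains stood at 0.64 (C1qa), 0.43 (C1qb) and 0.79 (C1qc), with adjusted p from 0.129 to 0.457. Among 13 costimulatory and checkpoint genes Slamf7, Lgals9 (galectin-9; 0.79, adjusted p = 0.00914) and Cd274 or PD-L1 (0.74, adjusted p = 0.0279) were up. Cd274 had 9.82 and 9.67 at 24 h, against 9.15 and 8.85 at 0 h. The call of Cd274 was kept only without an array of 2 h, and that of Lgals9 was lost without array 2, 17 or 22. The costimulators Cd80 (0.26), Cd86 (0.63) and Cd40 (-0.01) were not called. Ly6e (0.97) and Ms4a6c (0.95) were up beside Ms4a6b, 3 of 7 genes of the Ly6 and Ms4a families, but Ly6e was lost without array 2, 17 or 22 and Ms4a6c without array 22. P2ry14 was the only one called of the 12 chemoattractant receptors in its list, with 9.82 and 9.66 at 24 h, against 8.66 and 8.24 at 0 h (change 1.29, adjusted p = 0.00974; lost without array 17 or 22). Cxcr2, a chemokine receptor of neutrophils that is in none of the lists and was chosen after its values were seen, was down, with 5.23 and 5.35 at 24 h, against 6.18 and 6.02 at 0 h (change -0.81, SE 0.150, adjusted p = 0.0431; kept only without an array of 2 h).

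Chemokines were called in both directions, where the shares of all genes were 0.76% up and 0.902% down. Of 22 measured, Ccl5 and Ccl8 were up and Ccl22, a chemokine for regulatory T cells, was down, with 5.79 and 5.58 at 24 h, against 6.70 and 6.67 at 0 h (change -1.0, SE 0.180, adjusted p = 0.0387). Without array 22 neither rise was called, and the fall of Ccl22 was kept only without an array of 2 h. Cxcl10, a ligand of Cxcr3 and a textbook interferon target, had 6.56 and 6.47 at 24 h, against 7.47 and 6.88 at 0 h, which is a change of -0.66 that was not called (SE 0.182, adjusted p = 0.145). Its mean at 4 h was 13.12. Ccl2, the main chemokine for monocytes, had 10.45 and 10.64 at 24 h, against 11.06 and 11.02 at 0 h (change -0.50, SE 0.134, adjusted p = 0.137), and Cxcl2, a chemokine for neutrophils, was at -1.05 (adjusted p = 0.098). Both 24 h arrays lay below both 0 h arrays in 8 of the 22 chemokines and above them in 7, against 19.2% and 29.6% of all genes. Among 15 interleukins and their regulators only Ebi3, a subunit of interleukin 27 and 35, was called (0.69, adjusted p = 0.0293; kept only without an array of 2 h).

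The genes called at 24 h had reached that level in different ways. Of the 114 risen clusters, the highest mean was that of 4 h in 56, of 8 h in 21, of 24 h in 36 and of 1 or 2 h in 1. Their choice by high levels at 24 h favours a highest mean at that time, and the same count over all clusters was not made. The 24 h arrays were also compared with those of 8 h and 4 h, and the results stand side by side here because all of them rest on the same 24 h arrays. Over all clusters, 49 were higher at 24 h than at 8 h (0.21%) and 234 lower (1.0%), and 761 were higher at 24 h than at 4 h (3.26%) and 854 lower (3.66%). Among clusters with 1 symbol the shares were 0.267% and 0.934% against 8 h and 4.37% and 3.96% against 4 h, and per gene they were 0.269% and 0.929%, and 4.38% and 3.96%. Of the 15 largest rises, 1 was higher and 4 lower at 24 h than at 8 h, and 2 higher and 5 lower than at 4 h.

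At 24 h some genes lay near the highest of their means, though the lack of a call between times does not show that they stayed level. Between 24 and 8 h Fcgr4 changed by -0.505 (SE 0.108), Cfb by -0.35 (SE 0.104) and Irf7 by -0.255 (SE 0.126). Mean levels of Irf7 at 0, 1, 2, 4, 8 and 24 h were 9.35, 10.21, 10.83, 11.88, 12.18 and 11.92. Those of Fcgr4 were 9.32, 10.26, 11.02, 11.75, 11.93 and 11.42, and those of Cfb were 5.25, 5.53, 6.30, 7.76, 8.01 and 7.66. The difference between 24 and 4 h was 0.04 for Irf7 (adjusted p = 0.926), -0.33 for Fcgr4 (adjusted p = 0.113) and -0.10 for Cfb (adjusted p = 0.681), and none of them was called between 24 and 8 h (adjusted p = 0.535, 0.0819 and 0.213). Ccl5, Ccl8, Bst2 and Ms4a6b were likewise not called between 24 h and either time, with differences from -0.33 to 0.32.

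Other antiviral genes had fallen far from their peak and were still above 0 h. Mean levels of Ifit1 at 0, 1, 2, 4, 8 and 24 h were 7.98, 11.56, 12.51, 12.81, 10.78 and 9.61. Between 24 and 4 h Ifit1 changed by -3.21 (adjusted p = 1.77e-05), Ifit2 by -2.45 (adjusted p = 1.8e-05), Isg20 by -2.72 (adjusted p = 5.96e-06) and Zbp1 by -1.61 (adjusted p = 4.82e-05). Among the called GTPases and Mx genes the changes between 24 and 4 h ran from those of Irgm1 (-1.51), Gvin1 (-1.65) and Mx2 (-3.13) to larger ones, Gbp3 by -4.45 (adjusted p = 9.15e-07), Mx1 by -4.01 (adjusted p = 1.61e-06), Gbp7 by -3.92 (adjusted p = 1.38e-06) and Gbp2 by -3.54 (adjusted p = 6.8e-07). The chemokine gene Cxcl10 changed by -6.61 between these times (adjusted p = 8.81e-07) and, unlike the genes above, was not above 0 h at 24 h. The level of Gbp3 was 12.07 at 4 h and 7.75 and 7.5 in the arrays of 24 h, against 6.97 and 6.77 at 0 h.

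Another set appeared late. The named gene Cdkn1c had mean levels of 8.74, 8.84, 8.81, 8.62, 9.27 and 10.15 at 0, 1, 2, 4, 8 and 24 h, and was higher at 24 h than at 8 h (0.89, adjusted p = 0.00865) and at 4 h (1.53, adjusted p = 0.000113). Its levels at 24 h were 10.25 and 10.05, against 8.71 and 8.78 at 0 h. Dio2 was first called at 8 h, and its difference between 24 and 8 h was -0.27 (adjusted p = 0.662). Siglec1 was higher at 24 h than at 4 h (0.98, adjusted p = 0.000661) but was not called against 8 h (0.46, adjusted p = 0.087). Gas6 was higher than at 8 h (0.94, adjusted p = 0.00875) and at 4 h (1.08, adjusted p = 0.000934). Part of these differences was a return from lower levels, since Gas6 lay below 0 h by -0.455 at 4 h and -0.31 at 8 h.

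Some late genes outside the lists and the 15 largest rises were chosen after their values were seen. Slc40a1 or ferroportin, which exports iron from macrophages, had 10.36 and 10.35 at 24 h, against 9.33 and 9.13 at 0 h (change 1.13, SE 0.12, adjusted p = 0.00484), and lay 1.42 above its level at 8 h (adjusted p = 0.00142). Cd33, a lectin for sialic acid, had 10.50 and 10.32 at 24 h, against 9.71 and 9.65 at 0 h (change 0.73, SE 0.103, adjusted p = 0.0158), with 1.23 above 8 h (adjusted p = 0.00135). Tcn2, the carrier of vitamin B12, had 10.83 and 10.85 at 24 h, against 10.07 and 10.11 at 0 h (change 0.75, SE 0.097, adjusted p = 0.0106). For all of them the mean at 24 h was the highest of the 6 times. Slc40a1 and Cd33 had first lain below 0 h, with changes of -0.35 and -0.505 at 4 h and -0.295 and -0.5 at 8 h. Part of their differences from 8 h was thus a return to the level of 0 h. Slc40a1 was lost without array 17 or 22, and Cd33 and Tcn2 without any array of 0 or 24 h. Tfrc, the transferrin receptor that takes iron up, was lower, with 10.47 and 10.38 at 24 h, against 11.29 and 10.98 at 0 h (change -0.71, SE 0.13, adjusted p = 0.0411; kept only without an array of 2 h).

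**Figure D4:**
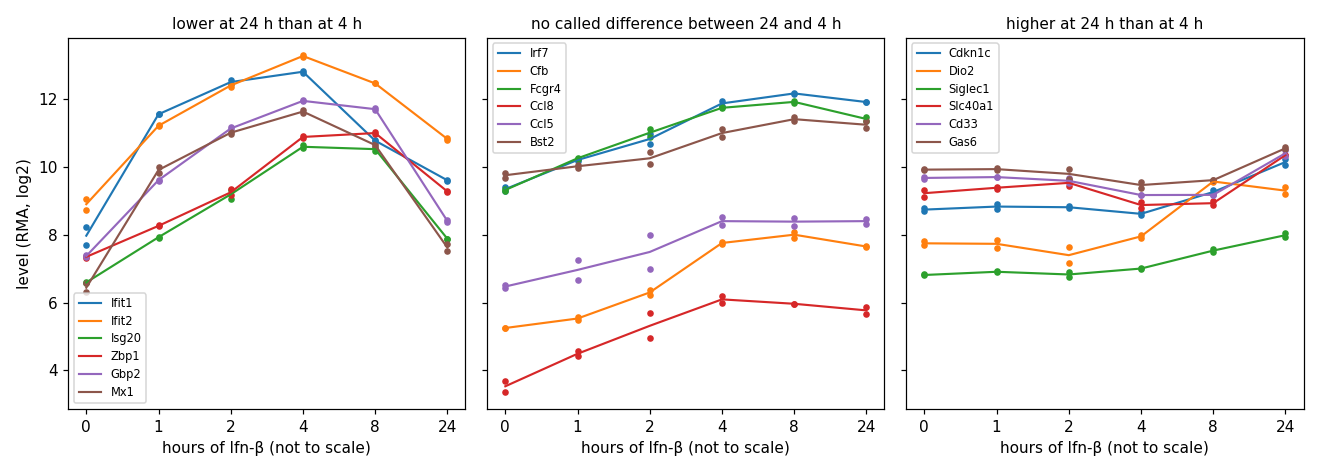
Mean level (lines) and both arrays (points) of 18 genes called up at 24 h, RMA log2, at 0, 1, 2, 4, 8 and 24 h of Ifn-β (steps not to scale); left, genes lower at 24 h than at 4 h, middle, genes with no called difference between them, right, genes higher at 24 h than at 4 h. Ifit1 peaks at 12.81 at 4 h and stands at 9.61 at 24 h. Irf7 rises from 9.35 at 0 h and lies near 12 from 4 h on, and Cdkn1c leaves its level of 0 h after 4 h.

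The falls were led by genes of dividing cells. Tk1, thymidine kinase of S phase (cluster 6792601), had 7.32 and 7.48 at 24 h, against 8.96 and 8.90 at 0 h, which is a change of -1.53 (SE 0.20, adjusted p = 0.0114). Mki67, which encodes the proliferation marker Ki-67 (cluster 6971848), had 9.07 and 9.10 at 24 h, against 10.64 and 10.50 at 0 h, which is a change of -1.49 (SE 0.120, adjusted p = 0.00153). The arrays of a time lay close together. Pbk, a kinase of mitosis, had 8.50 and 8.46 at 24 h, against 9.99 and 9.74 at 0 h, which is a change of -1.39 (SE 0.131, adjusted p = 0.00316). Kif11, the kinesin that drives spindle poles apart, had 8.35 and 8.38 at 24 h, against 9.69 and 9.41 at 0 h, which is a change of -1.19 (SE 0.148, adjusted p = 0.00957). Both 24 h arrays agreed more closely than the 0 h arrays for Pbk and Kif11.

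Others of the 15 largest falls serve the same processes. They are Pclaf, a partner of the replication clamp PCNA (-1.30), the spindle protein Nusap1 (-1.25), anillin of cytokinesis, Anln (-1.25), cyclin E2, Ccne2 (-1.24), the linker histone H1f3 (-1.21), the kinetochore gene Cenpq (-1.18) and the kinesin Kif4 (-1.15). The rest are not known for cell division. Mmp8, the collagenase of neutrophils, had 7.91 and 7.77 at 24 h, against 9.37 and 9.26 at 0 h (change -1.48, SE 0.154, adjusted p = 0.00417), and Ifi27, named for its induction by interferon in human cells, had 7.09 and 7.11 at 24 h, against 8.58 and 8.50 at 0 h (change -1.44, SE 0.146, adjusted p = 0.00402). The glutathione transferase Gsta3 (-1.21) and Olfr978 (-1.32), an olfactory receptor, were the lowest in level, with 5.12 and 5.45, and 3.72 and 3.90, at 24 h, against 6.58 and 6.40, and 5.28 and 4.98, at 0 h. The calls of Mki67, Ifi27 and Pbk held in all 12 fits with an array left out. Mmp8 was lost without array 22 and Anln without array 17 or 22 (adjusted p = 0.0561 each), and the other 10 were lost without at least 2 arrays, one of them array 22 (adjusted p up to 0.26, for Cenpq).

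Genes of mitosis are often controlled through the cell cycle genes homology region (CHR), here the letters TTTGAA on either strand, and a CCAAT box, the letters CCAAT on either strand. In the same windows TTTGAA was in 47 of 113 (41.6%) of the fallen genes, against 16 of 89 (18%) of the risen genes and 14.6% of all genes with 1 symbol. CCAAT was in 61.9% of the fallen, 28.1% of the risen and 38.5% of all genes. Of the 15 largest falls, 12 had a window and 7 of these held TTTGAA. These were Mki67, Kif11, Anln, Kif4 and H1f3, and also Gsta3 and Olfr978, which are not known for cell division. In Anln and Kif4 the letters lay only after the start. The stretches of Mki67 and Kif11, and of Top2a, the topoisomerase that untangles chromosomes, are shown as examples of the mitosis genes. They are chr7:135716380-135716505 (minus strand), chr19:37376262-37376381 (plus strand) and chr11:99024190-99024378 (minus strand) in GRCm38.p6, written as before, with TTTGAA or its complement in capitals.
Mki67: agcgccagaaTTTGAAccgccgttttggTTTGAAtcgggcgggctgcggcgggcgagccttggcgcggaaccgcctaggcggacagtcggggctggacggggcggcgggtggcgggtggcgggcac
Kif11: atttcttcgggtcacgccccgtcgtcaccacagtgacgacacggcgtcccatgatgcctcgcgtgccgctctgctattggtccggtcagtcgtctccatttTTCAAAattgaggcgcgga
Top2a: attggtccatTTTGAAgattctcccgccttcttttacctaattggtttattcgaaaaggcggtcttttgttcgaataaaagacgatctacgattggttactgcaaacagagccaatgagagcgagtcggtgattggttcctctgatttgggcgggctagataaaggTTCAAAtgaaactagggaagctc
Mki67 and Top2a hold the letters at 2 places each and Kif11 at 1, and no match was tested as a site.

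The mitosis genes had the lowest median change of the 52 lists. Of 25 measured members, 21 were called down and none up, the median change was -0.98, and in all 25 both 24 h arrays lay below both 0 h arrays, against 19.2% of all genes. Top2a had 9.74 and 9.80 at 24 h, against 10.99 and 10.81 at 0 h (change -1.13, SE 0.110, adjusted p = 0.00342), and Ccna2 or cyclin A2 had 9.73 and 9.75 at 24 h, against 10.90 and 10.85 at 0 h (change -1.14, SE 0.114, adjusted p = 0.00388). Bub1, a kinase of the spindle checkpoint, had 8.41 and 8.28 at 24 h, against 9.58 and 9.38 at 0 h (change -1.14, SE 0.145, adjusted p = 0.0104). No member overlapped between the times. The members not called were Cdk1 (-0.86, adjusted p = 0.053), Cdc20 (-0.98, adjusted p = 0.0668), Ndc80 (-0.91, adjusted p = 0.0726) and Kif23 (-0.56, adjusted p = 0.101). The count was 3 without array 2, 17 or 22, 10 without array 4, 14 without an array of 4 or 8 h and 24 without an array of 2 h, while Top2a and Ccna2 were called in each of the 12 fits.

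Of 27 genes of DNA replication and S phase, 10 were down and none up, with a median change of -0.71. In 26 both 24 h arrays lay below both 0 h arrays, against 19.2% of all genes. Mcm6, a subunit of the replicative helicase, had 9.77 in both arrays at 24 h, against 10.63 and 10.57 at 0 h (change -0.83, SE 0.099, adjusted p = 0.0081), and Rrm1, the large subunit of ribonucleotide reductase, had 10.35 and 10.44 at 24 h, against 11.24 and 11.15 at 0 h (change -0.80, SE 0.108, adjusted p = 0.0131). Cyclins E1 and E2 (Ccne1 -1.02, Ccne2 -1.24) were called, and E2f1, a factor that activates such genes, was at -0.05 with overlapping arrays. No member was called without array 2, 17 or 22, 1 without array 4, 4 to 5 without an array of 1, 4 or 8 h, and 20 without an array of 2 h.

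The 2 lists took different courses before 24 h. Against 0 h, the median changes of the mitosis genes at 1, 2, 4, 8 and 24 h were -0.04, -0.24, -0.52, -0.62 and -0.98. Those of the replication genes were 0.08, -0.12, -0.58, -0.28 and -0.71 at the same times. Uhrf1, which maintains DNA methylation in S phase, had a mean of 9.05 at 4 h, 10.04 at 8 h and 9.5 at 24 h, against 10.21 at 0 h, and its call at 24 h (-0.71, adjusted p = 0.0289) was kept only without an array of 2 h. Mki67 went down at every step, with means of 10.57, 10.40, 10.06, 9.82, 9.56 and 9.09. Of the 135 fallen clusters, 118 had their lowest mean of the 6 times at 24 h, 4 at 8 h and 13 at 4 h. They were chosen by low levels at 24 h, which favours a lowest mean at that time. The same count over all clusters was not made.

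**Figure D5:**
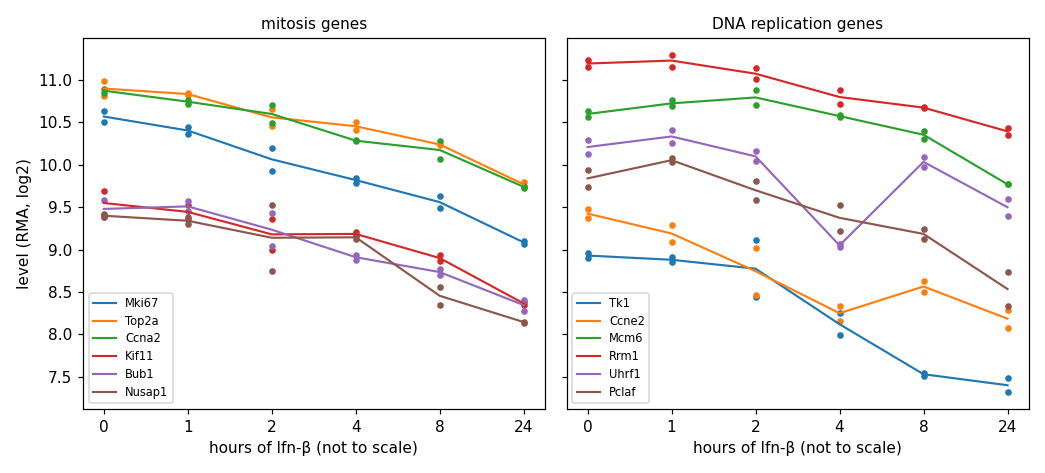
Mean level (lines) and both arrays (points) of 6 mitosis genes, left, and 6 DNA replication genes, right, RMA log2, at 0, 1, 2, 4, 8 and 24 h of Ifn-β (steps not to scale). Each of the 12 genes has its lowest mean at 24 h except Uhrf1, which was lowest at 4 h (9.05).

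Metabolic genes changed less. For the counts below, both 24 h arrays lay below both 0 h arrays in 19.2% of all genes and above them in 29.6%. Of 21 genes of cholesterol and fatty acid synthesis limma called none, and 1 reached 1.5-fold at an unadjusted p under 0.05, but both 24 h arrays lay below both 0 h arrays in 17, with a median change of -0.33. The lowest values were those of Elovl6 (-0.88, adjusted p = 0.187), Cyp51 (-0.57, adjusted p = 0.145) and Hsd17b7 (-0.56, adjusted p = 0.0715). Genes of cholesterol efflux and lipid handling lay the other way, with a median of 0.33 and 10 of 13 above 0 h in both arrays. None of these 13 was called by limma, and 0 passed at an unadjusted p with the same fold; Apoe, which carries cholesterol, was at 0.56 (adjusted p = 0.0386), just under 1.5-fold. The median of 21 lysosome genes was 0.17, with 17 above in both arrays and none called (0 at an unadjusted p), and that of 20 respiratory chain genes was 0.01, with none called (1 at an unadjusted p). Of 10 metallothionein and oxidative stress genes, Nqo1, a quinone reductase, was down, with 5.86 and 5.96 at 24 h, against 6.87 and 6.78 at 0 h (change -0.92, adjusted p = 0.0457), and 8 lay below 0 h in both arrays. Of 16 genes tied to Atf4, the stress factor Ddit3 was up (1.14, adjusted p = 0.0411) and Psat1, an enzyme of serine synthesis, down (-0.98, adjusted p = 0.0168). The calls of Nqo1 and Ddit3 were kept only without an array of 2 h, and that of Psat1 was lost without any array of 0 or 24 h.

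Markers of other cells were checked beside these changes. Among 7 T cell markers, Cd4 had 6.22 and 6.17 at 24 h, against 5.26 and 5.19 at 0 h (change 0.97, adjusted p = 0.00501; lost without array 17 or 22), and the costimulatory receptor Cd28 had 10.37 and 10.15 at 24 h, against 9.37 and 9.30 at 0 h (change 0.93, adjusted p = 0.0272; kept only without an array of 2 or 4 h). The defining T cell genes Cd3d, Cd3e and Cd3g were at -0.44, 0.18 and 0.19 and were not called (adjusted p = 0.381, 0.842 and 0.712). Kdr was the only one of 6 endothelial markers called (1.14, adjusted p = 0.00568; lost without array 17). Of 7 neutrophil markers none was called by limma and 2 passed at an unadjusted p with the same fold, S100a8 with 5.37 and 5.38 at 24 h, against 6.57 and 6.67 at 0 h (change -1.25, adjusted p = 0.0548), and S100a9 at -0.92 (adjusted p = 0.11). S100a8 and S100a9 moved in the direction of Mmp8 and Cxcr2, and the means of Ngp and Ltf were also lower at 24 h. Elane, Camp and Mpo went the other way, with means of 6.34, 5.47 and 5.51 at 24 h, against 5.93, 5.25 and 5.39 at 0 h. The median change of the 7 was -0.21, and the part of such cells in these changes was not tested. Fcgr1 was the only one of the 7 macrophage markers called, with Csf1r at 0.17, Adgre1 at 0.28, Cd68 at 0.11 and Itgam at -0.04. In bulk samples like these, fewer cells of a type and less RNA per cell cannot be told apart.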

How the data were processed

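RNA of mouse bone marrow-derived macrophages was hybridised to 12 Affymetrix Mouse Exon arrays, 2 at each of 6 times. The authors normalised the arrays by RMA in Affymetrix Expression Console at the core gene level and deposited 1 log2 value for each of 23332 transcript clusters; tool versions are not given in the sources used here. RMA pulls the distributions of all arrays together, so a change shared by most genes would not be seen. Groups were taken from the labels. Here limma 3.58.1 (R 4.3.3) was fitted to the 12 arrays with 6 groups, so that all times share an estimate of the spread (6 residual and 2.31 prior degrees of freedom), with Benjamini-Hochberg adjustment; it was tested on simulated data. The named genes are the 15 largest rises and 15 largest falls among called clusters with 1 symbol, a gene with several clusters being given by its brightest, and the members of 52 lists, of which 592 of 751 were measured. Members and lists were chosen with earlier results of these data known. Promoter windows are from RefSeq (GRCm38.p6) and were matched by gene ID. Other thresholds, fits, normalizations, a filter on low levels and leaving out each array were tried.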

Additional observations from a re-analysis of the deposited data

How the results depend on the processing

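None of the 114 risen and 135 fallen clusters with 1 symbol turned its direction between 24 and 0 h under any alternative run. For most runs this was fixed in advance. None of these clusters had overlapping arrays, so leaving out an array could not turn a direction. Runs with other thresholds, filters or estimates of the spread used the same means. Between 24 and 0 h, against 143 up and 195 down, the counts were 404 up and 1160 down at an unadjusted p, 72 and 88 at 2-fold, 237 and 330 with quantile normalization applied again, and 395 down with array weights and 314 down with the lowest 30% of clusters left out. The fit of the 4 arrays of 24 and 0 h alone called 0 up and 0 down by limma (461 and 1319 at an unadjusted p with the same fold), with fewer arrays to estimate the spread. Leaving out an array gave 38 to 198 up and 13 to 395 down, and 24 rises and 7 falls with 1 symbol were called in all 12 such fits. Between 24 and 8 h, against 49 up and 234 down, there were 278 and 861 at an unadjusted p, 13 and 136 at 2-fold, 145 and 413 with array weights, 133 up with quantile normalization and 74 up with the low filter, and 2 to 107 up and 49 to 304 down without an array. Between 24 and 4 h, against 761 up and 854 down, there were 198 and 480 at 2-fold, and 249 to 926 up and 478 to 951 down without an array. The other alternatives kept these counts within 1.5 times. Where an array was left out, the remaining array of its time was assumed to vary like the other times. The cause of these shifts was not tested. No paired analysis was possible because the times share no replicate numbers. With 2 arrays a time, dim genes and changes near 1.5-fold are the least certain.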

Other observations

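Some genes are read by more than 1 transcript cluster, and these did not always give the same call. For Tgtp1, an interferon-inducible GTPase, the mean level of cluster 6787931 was 5.87 at 24 h and 4.58 at 0 h (change 1.29, adjusted p = 0.0135 by limma), while that of cluster 6787909 was 6.58 at 24 h and 6.09 at 0 h (change 0.49, adjusted p = 0.199). For Erc1, a scaffold protein, cluster 6956924 had 4.00 at 24 h and 5.25 at 0 h (change -1.25, adjusted p = 0.002), and the brighter cluster 6956926 had 7.09 at 24 h and 7.53 at 0 h (change -0.43, adjusted p = 0.297). Plk1, a kinase of mitosis, was called in its bright cluster (-0.83, adjusted p = 0.016) and not in its dim one (-0.24, adjusted p = 0.57). The linker histone H1f5, in none of the lists and chosen after its values were seen, was called down with any array left out.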
